A study of Homo sapiens and Mus musculus with 55 samples.

Results

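The IFIT and OAS genes encode intracellular antiviral proteins whose transcripts are among the most strongly induced by interferon. Chosen by symbol were IFIT1, IFIT2, IFIT3, IFIT5, OAS1, OAS2, OAS3 and OASL, which are 8 of 39118 human gene symbols in 8 tables. In 2 mouse tables the corresponding symbols were Ifit1, Ifit2, Ifit3, Oas1a, Oas2, Oas3, Oasl1 and Oasl2, 8 of 28000. They were followed through 55 RNA-seq libraries of breast cancer cells, 40 human and 15 mouse, in a study whose title concerns the repression of STING by MYC in triple-negative breast cancer.

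The human lines, both triple-negative, were MDA-MB-436 and SUM159PT, and the mouse mammary tumour lines were 4T1 and Py230. In each human line, untreated parental cells (Par) were set against cells labelled Tax-R, taken here as taxane-resistant, and Tax-R cells carrying a control siRNA (siC) against Tax-R cells with MYC siRNA-1 or MYC siRNA-2 (siMYC1, siMYC2). Mock cells were set against groups C1 and C2, both with a STING sgRNA, and sgRNA cells given a GFP open reading frame (ORF) against sgRNA cells given a STING ORF, so that both ORF groups carried the sgRNA. Every human group had 2 libraries. 4T1 cells received the control siRNA or either MYC siRNA, and Py230 cells with a Sting1 shRNA received vehicle, Dox(-), or doxycycline, Dox(+), with 3 libraries in each group. Both Py230 groups carried the shRNA, so doxycycline itself and the shRNA it induces cannot be told apart. The labels give no dose, time or clone, and whether C1 and C2 are clones or guides is not stated.

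IFIT proteins bind viral RNA, and IFIT1, which works in a complex with IFIT2 and IFIT3, blocks translation of RNA whose cap lacks the methylation of the cell's own messages. IFIT5 binds the free phosphate end of RNA and acts on its own. OAS1, OAS2 and OAS3 sense double-stranded RNA and make 2-5A, a short chain of adenylates that serves as a messenger of RNA defence, whereas OASL makes no 2-5A and strengthens signalling by the RNA sensor RIG-I. STING relays the signal of cGAS, a sensor of DNA in the cytosol, and activates the transcription factor IRF3, which can act on some interferon-stimulated genes directly, and secreted interferon acts on them through STAT2 and IRF9. Both routes act through the interferon-stimulated response element, whose core is a pair of GAAA letters set apart by a pair of bases.

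That core was read in RefSeq promoter windows of assembly GRCh38.p14, from 250 bases before to 50 after the annotated start, to see how the members differ in it. IFIT1, IFIT3, IFIT5, OAS1 and OAS3 had an entry, 5 of the 8, and IFIT2, OAS2 and OASL had none. Below is the stretch from 170 bases before to 5 after the start of each, on the plus strand, 5′ to 3′. Capitals mark the core, which is GAAA, any 2 bases and GAAA again (TTTC, any 2 bases and TTTC where it lies on the other strand). In OAS1, which lacks the core, they mark GAAANGAAA, in which the spacer is 1 base. The stretches are IFIT1 at chr10:89392453-89392628, the second of the IFIT3 windows at chr10:89332359-89332534, IFIT5 at chr10:89414398-89414573, OAS1 at chr12:112906792-112906967 and OAS3 at chr12:112938304-112938479.
IFIT1: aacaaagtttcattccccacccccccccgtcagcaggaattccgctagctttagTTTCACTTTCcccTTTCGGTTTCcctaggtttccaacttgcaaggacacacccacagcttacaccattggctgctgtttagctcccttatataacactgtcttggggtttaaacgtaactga
IFIT3: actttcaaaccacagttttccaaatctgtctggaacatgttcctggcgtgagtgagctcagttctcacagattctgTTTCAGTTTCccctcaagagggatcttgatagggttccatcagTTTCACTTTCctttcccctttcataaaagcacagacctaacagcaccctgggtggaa
IFIT5: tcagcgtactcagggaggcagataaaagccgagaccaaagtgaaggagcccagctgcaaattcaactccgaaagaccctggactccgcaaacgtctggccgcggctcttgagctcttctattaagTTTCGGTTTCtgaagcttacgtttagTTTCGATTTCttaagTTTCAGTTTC
OAS1: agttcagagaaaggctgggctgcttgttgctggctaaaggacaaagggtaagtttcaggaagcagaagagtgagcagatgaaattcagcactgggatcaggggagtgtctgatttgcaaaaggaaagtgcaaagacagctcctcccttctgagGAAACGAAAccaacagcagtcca
OAS3: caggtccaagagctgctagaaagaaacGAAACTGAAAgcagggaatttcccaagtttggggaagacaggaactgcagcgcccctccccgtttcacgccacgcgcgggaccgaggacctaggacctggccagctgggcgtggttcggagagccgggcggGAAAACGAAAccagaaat

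IFIT1 held 2 cores, beginning 116 and 103 bases upstream of the start (positions -116 and -103, with the start at 0). IFIT3 held 2 in each of its windows, at -156 and -122 in the first and at -94 and -51 in the second. IFIT5 held 3, at -45, -19 and -4, and OAS3 held 2, at -143 and -12. Of 35116 human windows of the same length, 3.57% held the core on either strand, 0.259% held 2 or more and 0.037% held 3 or more. The shorter GAAANGAAA stood at -17 in OAS1, at -148 in OAS3 and at -45 in the second IFIT3 window, in the last 2 overlapping a core, and 3.12% of windows held it. The gamma-activated site TTCNNNGAA was found in OAS1 alone, at -168 (7.66% of windows), and the E-box CACGTG, a motif that MYC can bind, in none of these 6 windows (7.26% of windows). These are matches of letters and not measured binding.

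**Figure D1:**
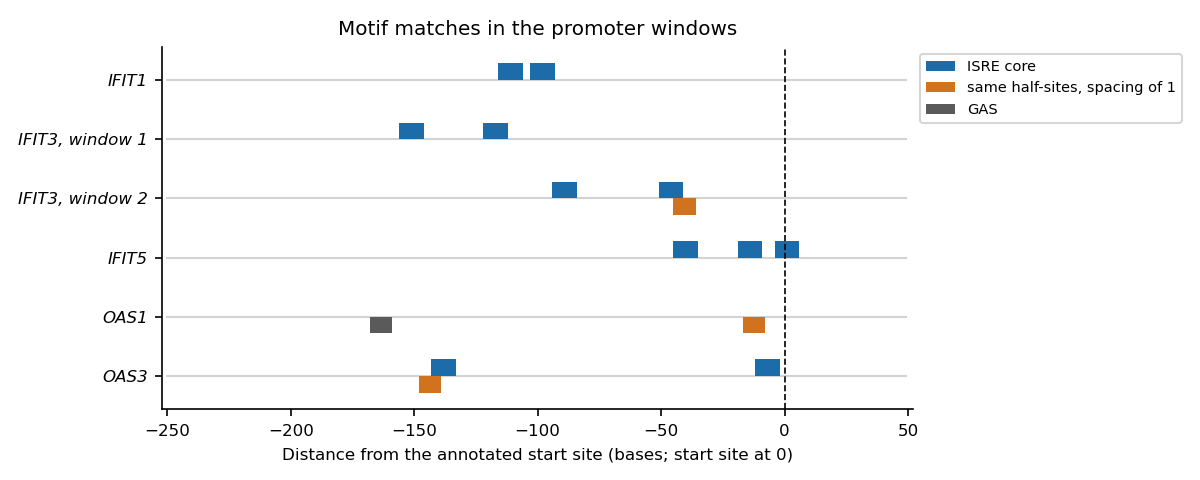
Motif matches by distance in bases from the annotated start (dashed line at 0) in 6 RefSeq windows of 5 genes; blue, the core with a spacer of 2 bases; orange, the same letters with a spacer of 1 base; grey, the gamma-activated site. IFIT5 has 3 cores within 45 bases of the start, and OAS1 has the shorter spacing and no core.

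Depth was 5663610 to 13191675 reads per library. Each table was normalized on its own, so levels are compared within a table. In the table of MDA-MB-436 parental and Tax-R cells, the 2 Tax-R libraries differed by less than sampling noise (chi-square of 0.856 per gene over 20466 genes) and were kept as 2, with a fit that counts them as 1 beside the result it changes. In the other human groups this value ran from 1.02 in MDA-MB-436 mock cells to 2.76 in SUM159PT cells with the STING ORF. Several of these pairs thus also lay close to sampling noise. Across 17892 genes, the Tax-R groups of the lines correlated at 0.977 with each other and the parental groups at 0.961, but Tax-R and parental cells of one line at 0.929 in MDA-MB-436 and 0.937 in SUM159PT. In the siRNA tables (14728 genes) the siC groups, also Tax-R cells, correlated at 0.912 between the lines. In the STING sgRNA tables (14457 genes) mock and sgRNA groups of one line correlated at 0.973 to 0.981 and the mock groups of the lines at 0.95. VIM, KRT8 and KRT18 were read in all mock libraries, with VIM at 12249.6 to 14826.2, while EPCAM had 0 reads there. The leukocyte marker PTPRC was read in MDA-MB-436 mock cells at a mean of 1022, whereas CD3E had 0 reads, and the line's leukocyte list moved with some comparisons as given below. The labels do not say whether replicates came from separate cultures. The p-values measure only the spread between these libraries, which may be technical. Groups this small are often separate for a gene that does not change, so statements that groups did not overlap only describe these libraries. In bulk RNA, fewer cells with a transcript and less of it per cell cannot be told apart.

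Libraries with the STING sgRNA held far less OASL, IFIT1, IFIT2 and IFIT3 than mock libraries in both human lines. OAS1 and OAS2 were lower in MDA-MB-436, and IFIT5 was no lower in either line. The labels name no control sgRNA group, so loss of STING and other effects of the sgRNA procedure cannot be told apart. The targeted gene, STING1, listed as TMEM173, was at 182.5 and 157.8 normalized counts in MDA-MB-436 mock libraries and at 55.1, 41.7, 44 and 46.0 with the sgRNA (log2 fold change -1.85 ± 0.15, SE, on log2(value + 1), limma adjusted p = 3.69e-11). In SUM159PT it was at 261.3 and 229.4 against 92.7 to 114.3 (-1.28 ± 0.11). Of 8 members in MDA-MB-436, 7 were lower and 1 higher at adjusted p below 0.05, which is called here, against 47.8% of all genes called, 23% lower and 24.8% higher. In SUM159PT, 4 were lower and 1 higher of 6 tested, against 39.1%, of which 19.8% lower and 19.3% higher; OAS1 and OAS2 fell under the filter of a table mean of 10. The median log2 fold change of the members was -2.96 in MDA-MB-436 and -2.60 in SUM159PT, and that of all genes tested was 0.01 and 0.00.

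OASL, the RIG-I partner without enzyme activity, showed the widest change of the family. It was at 854.9 and 910.1 in MDA-MB-436 mock libraries, at 10.02 and 4.2 in C1 and at 5 and 4.1 in C2. Every sgRNA library was at or below 10.02, and the groups did not overlap (-7.09 ± 0.24, adjusted p = 2.59e-20), number 2 from the bottom of 15305 genes by fold change. In SUM159PT it was at 155.4 and 123.8 in mock and at 1.9, 4.2, 4.1 and 3.1 with the sgRNA (-5.05 ± 0.33, adjusted p = 2.07e-16), number 7 from the bottom of 15168.

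IFIT2, a partner of IFIT1 in RNA binding, was at 332.8 and 345.2 in MDA-MB-436 mock libraries and at 7.0, 7.3, 5 and 5.1 with the sgRNA (-5.60 ± 0.23, adjusted p = 5.01e-18). In SUM159PT it was at 100.1 and 91.2 against 6.6, 9.4, 12.3 and 9.3 (-3.24 ± 0.27, adjusted p = 1.75e-13). In both lines every sgRNA library was far below both mock libraries. IFIT1, which blocks translation of foreign caps, was at 247.9 and 244.6 in MDA-MB-436 mock and at 12.03, 13.6, 12 and 19.4 with the sgRNA (-4.04 ± 0.21, adjusted p = 7.73e-16). In SUM159PT its mock libraries stood apart from each other, at 76.3 and 52.8, but both lay above the sgRNA libraries at 11.4, 10.5, 3.1 and 11.3 (-2.81 ± 0.33, adjusted p = 2.49e-09). IFIT3, which stabilises the IFIT1 complex, kept more transcript than IFIT2: it was at 705.6 and 694.1 in MDA-MB-436 mock and at 51.1 to 65.5 in the 4 sgRNA libraries (-3.56 ± 0.11, adjusted p = 8.41e-21). SUM159PT had 228.9 and 231.3 in mock and 38.1 to 48.4 with the sgRNA (-2.39 ± 0.15, adjusted p = 1.37e-17).

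IFIT5 stood apart from the other IFIT genes. In MDA-MB-436 it was at 191.3 and 219.7 in mock and at 256.6, 243.1, 277 and 282.4 with the sgRNA, so all sgRNA libraries were higher (0.37 ± 0.08, adjusted p = 0.000682, but 0.0621 without the first mock library, when the difference is 0.27). In SUM159PT the groups overlapped, at 249.9 and 275.5 against 273.3 to 312.0 (0.14 ± 0.08, adjusted p = 0.156).

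Of the 2-5A synthetases, OAS1 and OAS2 were lower in MDA-MB-436. OAS2 was at 197.1 and 213.2 in mock and at 31.1, 39.6, 40 and 47.1 with the sgRNA (-2.36 ± 0.15, adjusted p = 1.99e-13). OAS1 was at 47.8 and 48.0 against 8.0, 16.7, 18 and 15.3 (-1.71 ± 0.27, adjusted p = 6.91e-06). For both genes mock and sgRNA libraries did not overlap. In SUM159PT both were near the limit of detection and were not tested: OAS1 had 1 read in mock and 6 with the sgRNA, a ratio of 3.18 with a 95% counting interval of 0.386 to 146, and OAS2 was at 8.6 in both mock libraries and at 2.1 to 11.3 with the sgRNA.

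OAS3, the largest of the synthetases, was at 737.8 and 782.7 in MDA-MB-436 mock libraries and at 468.1, 500.8, 435 and 466.6 with the sgRNA (-0.70 ± 0.06, adjusted p = 9.17e-11). In SUM159PT it was at 380.5 and 439.6 in mock and at 655.8, 572.4, 555.5 and 546.8 with the sgRNA (0.51 ± 0.07, adjusted p = 2.82e-08). The libraries of mock and sgRNA cells did not overlap in either line, and the directions were opposite; the lines are in separate tables, so this difference was not tested. Between C2 and C1, limma and edgeR called 0 members in either line, against 0.797% of genes in MDA-MB-436 and 19.9% in SUM159PT by limma; at an unadjusted p below 0.05 both tools had 0 members in MDA-MB-436 and 1 in SUM159PT. Leukocyte markers, 7 genes summed, were at 1022.8 to 1049.4 in MDA-MB-436 mock and 1230.8 to 1323.0 with the sgRNA, thus higher where the members were lower. In SUM159PT the sum was 99.2 to 120.0 in mock and 1.0 to 7.2 with the sgRNA, nearly all of it PTPRC, with CD3E at 0 reads; its part in the result was not tested. Summed mesenchymal markers were higher with the sgRNA, at 23878.6 to 24128.7 in mock and 28776.5 to 30749.7 with the sgRNA in MDA-MB-436 and at 22201.2 to 22508.6 and 28760.8 to 29792.7 in SUM159PT. CDH2 went against this list in SUM159PT (-0.28 ± 0.06, limma adjusted p = 0.000173). Epithelial markers went from 6434.2 to 6458.6 down to 5532.8 to 5849.4 in MDA-MB-436 and from 9547.6 to 9980.0 up to 10243.3 to 11516.9 in SUM159PT, and the part of either list was not tested.

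**Figure D2:**
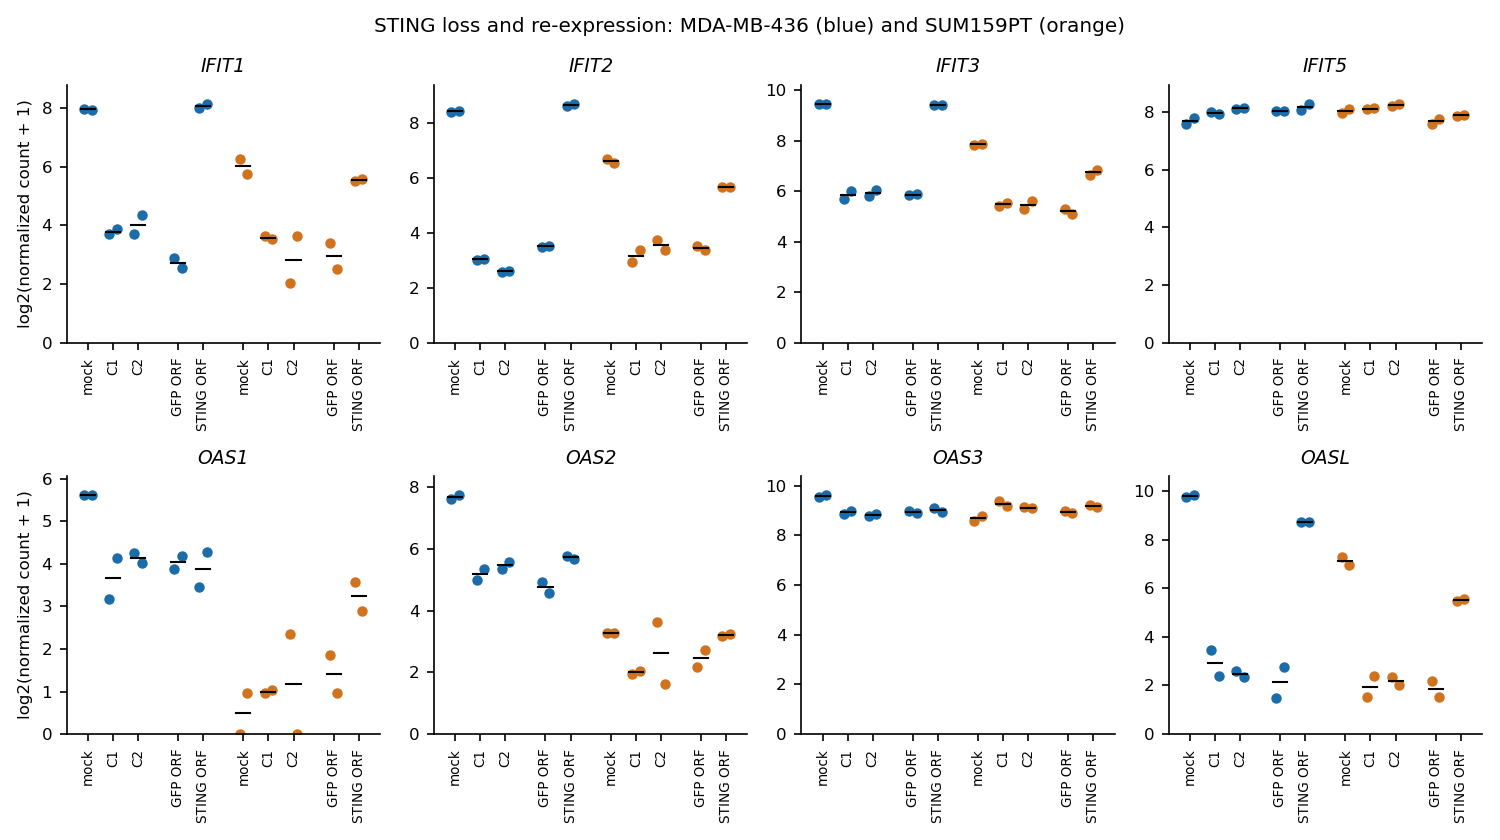
Each point is 1 library, as log2(normalized count + 1), with the group mean as a bar, in MDA-MB-436 (blue) and SUM159PT (orange); the sgRNA and ORF tables were normalized separately. OASL, IFIT1, IFIT2 and IFIT3 are low in C1, C2 and GFP ORF libraries and high in mock and STING ORF libraries, while IFIT5 and OAS3 span a narrower range.

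The sgRNA cells given the STING ORF held more OASL, IFIT1, IFIT2 and IFIT3 than those given the GFP ORF in both lines. OAS3 and IFIT5 did not pass in either, although OAS3 in SUM159PT passed without 1 of the libraries. TMEM173 itself, which counts ORF reads too, was at 32.1 and 20.98 with the GFP ORF and at 613.9 and 579.4 with the STING ORF in MDA-MB-436 (4.47 ± 0.16). In SUM159PT it was at 65.4 and 81.1 against 1599.1 and 1454.7 (4.37 ± 0.12). Its means in mock cells were 170.2 in MDA-MB-436 and 245.4 in SUM159PT. Mock and ORF libraries were normalized separately, so a return to the mock level was not tested. In MDA-MB-436, 5 of 8 members were higher and 0 lower, against 21.1% of genes called, 9.2% higher and 11.9% lower. In SUM159PT 4 of 6 tested were higher and 0 lower, against 26%, of which 13.2% higher and 12.8% lower. The members' median was 2.26 and 1.88, beside -0.01 and 0.01 for all genes.

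OASL was at 1.8 and 5.7 in MDA-MB-436 with the GFP ORF and at 423.8 and 425.8 with the STING ORF (6.61 ± 0.27, adjusted p = 1.21e-19), the highest fold change of 14851 genes. In SUM159PT it was at 3.5 and 1.9 against 42.9 and 45.9 (3.66 ± 0.39, adjusted p = 7.36e-08), number 3 of 14915. The STING ORF libraries of both lines lay far above their controls. IFIT1 was at 6.4 and 4.8 against 253.8 and 282.9 in MDA-MB-436 (5.36 ± 0.24, adjusted p = 7e-19), and at 9.6 and 4.7 against 44.9 and 46.9 in SUM159PT (2.59 ± 0.33, adjusted p = 1.85e-06). IFIT2 was at 10.1 and 10.5 against 384.7 and 412.2 in MDA-MB-436 (5.14 ± 0.19, adjusted p = 3.73e-21), and at 10.5 and 9.4 against 49.9 and 49.1 in SUM159PT (2.21 ± 0.28, adjusted p = 1.76e-06). IFIT3 was at 56.0 and 58.2 against 670.9 and 672.7 (3.53 ± 0.12, adjusted p = 7.59e-22), and at 38.4 and 33 against 99.8 and 112.0 (1.54 ± 0.19, adjusted p = 7.81e-07). Each of the 4 genes had the larger fold change in MDA-MB-436; the difference between lines was not tested.

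OAS2 rose in MDA-MB-436 from 29.4 and 22.9 to 53.7 and 50.5 (0.98 ± 0.24, adjusted p = 0.00393, but 0.0827 when no gene is filtered out). OAS1 did not pass there, at 13.8 and 17.2 against 10.1 and 18.5 (-0.16 ± 0.37, adjusted p = 0.808). Whether OAS1 and OAS2 differ in their response to the ORF was not tested. OAS3 was at 500.2 and 476.9 against 553.5 and 486.0 in MDA-MB-436 (0.09 ± 0.09, adjusted p = 0.552) and at 505.7 and 475.3 against 599.9 and 564.2 in SUM159PT (0.25 ± 0.09, adjusted p = 0.0549, but 0.29 and 0.00779 without the second STING ORF library). IFIT5 changed by 0.12 ± 0.11 (adjusted p = 0.488) and 0.20 ± 0.12 (adjusted p = 0.227). In SUM159PT OAS1 had 4 reads with the GFP and 17 with the STING ORF, and OAS2 10 and 16; neither was tested. Marker sums of other cell types were lower with the STING ORF. In MDA-MB-436 epithelial markers went from 6127.0 to 6996.9 down to 4620.3 to 4809.2, mesenchymal from 19814.2 to 21118.4 down to 17740.5 to 18363.7 and leukocyte from 573.7 to 660.0 down to 451.7 to 488.0. In SUM159PT epithelial markers went from 11042.9 to 11301.5 down to 9308.6 to 9840.0 and mesenchymal from 25231.7 to 25258.1 down to 20367.5 to 20702.3, while leukocyte sums overlapped (5.7 to 7.8 and 4.3 to 20). The part of these lists in the result was not tested.

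**Figure D3:**
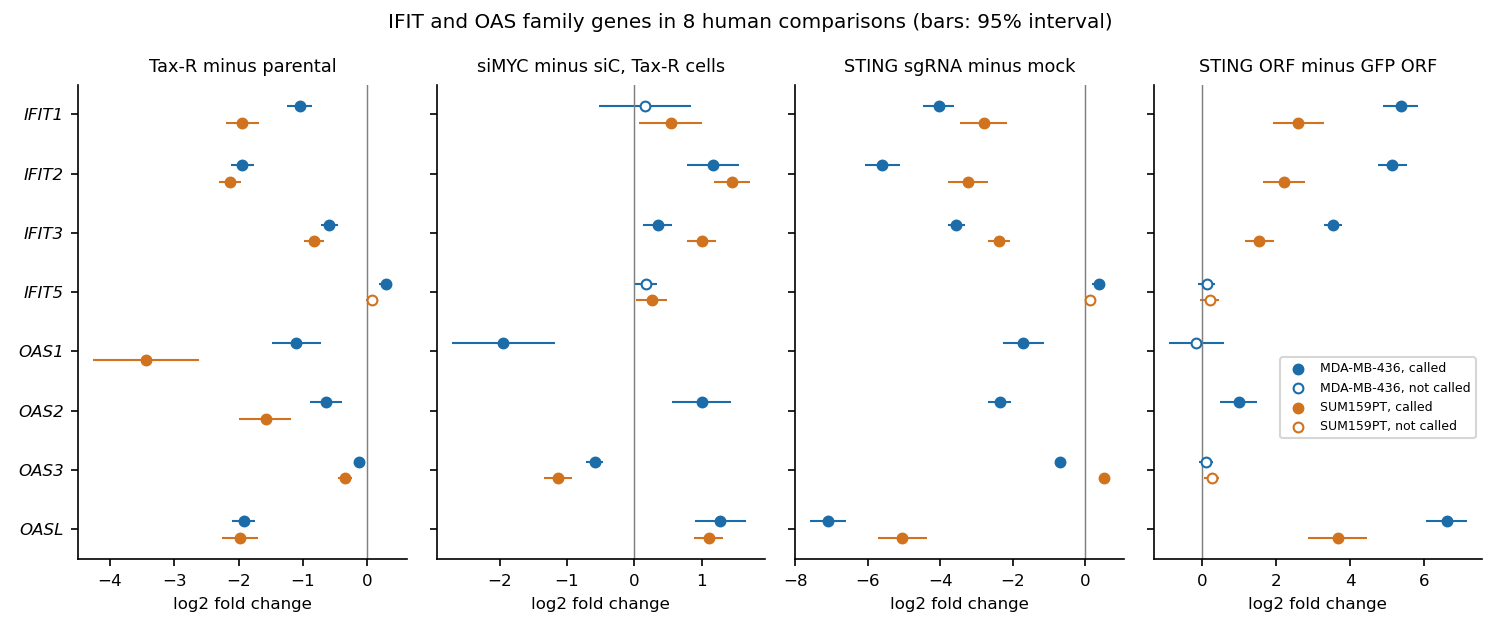
Log2 fold change with its 95% interval from limma for each member in the 8 human comparisons; filled points are called at adjusted p below 0.05, open points are not, and a missing point was under the filter. The x axes differ between panels. OASL and IFIT1 to IFIT3 lie left of 0 in Tax-R and STING sgRNA cells and right of 0 with the STING ORF, while OAS3 lies left of 0 in libraries labelled siMYC of both lines.

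Doxycycline in Py230 cells with the Sting1 shRNA lowered all 8 mouse members, with log2 fold changes from -2.29 for Ifit1 to -6.31 for Oas3 on the log2(value + 1) scale. Tmem173 was at 841.2, 768.3 and 885.7 with vehicle and at 48.3, 47.5 and 42.9 with doxycycline (-4.14 ± 0.09). All 8 members were called lower, against 67.8% of genes called, 35.1% lower and 32.8% higher, and their median was -4.68 beside -0.01 for all genes tested. Myc fell in the same libraries, from 2769.9 to 3281.1 with vehicle to 964.0 to 1020.1 with doxycycline (-1.64 ± 0.05).

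Ifit2 was at 14066.1, 10086.9 and 13234.8 with vehicle and at 493.5, 419.0 and 442.8 with doxycycline (-4.77 ± 0.08, adjusted p = 2.22e-24). Ifit3 was at 11646.9, 10382.4 and 12020.9 against 542.8, 395.8 and 346.0 (-4.75 ± 0.09, adjusted p = 4.64e-23). Ifit1 retained more of its transcript, at 7698.9, 6191.5 and 7260.1 against 1545.8, 1354.2 and 1402.4 (-2.29 ± 0.06, adjusted p = 9.37e-21). No doxycycline library of these genes reached a vehicle library. Oas2 was at 1992.7, 1579.7 and 1839.5 against 35.05, 28.7 and 31.96 (-5.77 ± 0.09, adjusted p = 2.22e-24), and Oas1a at 2223.0, 1987.1 and 2126.2 against 226.4, 207.8 and 255.7 (-3.20 ± 0.07, adjusted p = 1.1e-22). Oas3, at 283.6, 160.3 and 192.9 with vehicle, was left with 5 reads over the 3 doxycycline libraries (-6.31 ± 0.26, adjusted p = 1.55e-16, but -5.22 with a pseudocount of 4 and -7.00 in DESeq2), number 4 from the bottom by fold change of 14461 genes. The mouse has a pair of Oasl genes, of which Oasl2 kept the enzyme activity and Oasl1 did not. Oasl1 was at 2187.8, 1755.2 and 2095.3 against 108.0, 71.85 and 68.5 (-4.61 ± 0.11, adjusted p = 3.07e-21), and Oasl2 at 7835.3, 7191.8 and 7802.5 against 1346.0, 1191.7 and 1243.6 (-2.59 ± 0.05, adjusted p = 1.11e-23). Ifit1 and Oasl2 thus fell by less than the other 6, on the log2 scale, without a test between genes. Ifit3 shares most of its sequence with Ifit3b, and Oas1a with Oas1g and Oas1b, so reads may be split between copies; Ifit3b (-4.60 ± 0.08), Oas1g (-3.40 ± 0.08) and Oas1b (-2.81 ± 0.09) fell too. Leukocyte markers summed to 719.5 to 758.4 with vehicle and 655.5 to 724.6 with doxycycline, mostly Cd14 and Csf1r. Mesenchymal markers went from 43372.2 to 44852.0 with vehicle to 59190.3 to 69033.2 with doxycycline, and epithelial markers from 10952.9 to 11759.9 down to 10486.3 to 10741.4. The part of these lists in the result was not tested.

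Tax-R cells of both lines had less OASL, IFIT1 and IFIT2 than parental cells, and less IFIT3 by a smaller fold change. As given above, the Tax-R groups of the lines correlated more with each other (0.977) than with their own parental cells (0.929 and 0.937). The lines may therefore not be independent observations here, and the reason was not tested. PTPRC was at a mean of 308.9 in these MDA-MB-436 Tax-R libraries but had 2 reads in the siC libraries of that line, also Tax-R cells. In MDA-MB-436, 7 of 8 members were lower and 1 higher, against 54.6% of genes called (26.9% lower, 27.7% higher), with a median of -0.85 beside 0.01. In SUM159PT 7 of 8 were lower and 0 higher, against 45.7% (22.1% lower, 23.5% higher), with a median of -1.76 beside 0.01. TMEM173 was lower as well, from a mean of 396.6 ± 21.3 (SD, n = 2) to 193.6 ± 3.39 in MDA-MB-436 (-1.03 ± 0.07, limma adjusted p = 2.65e-07). SUM159PT held 557.0 and 499.0 in parental and 156.5 and 164.4 in Tax-R libraries (-1.71 ± 0.08).

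IFIT2 was at 501.1 and 478.8 in SUM159PT parental and at 110.5 and 111.9 in Tax-R libraries (-2.13 ± 0.08, adjusted p = 4.75e-08), and at 408.3 and 415.2 against 113.1 and 100.5 in MDA-MB-436. OASL was at 395.4 and 346.8 against 82.8 and 104.9 in SUM159PT (-1.98 ± 0.12, adjusted p = 1.64e-06), and at 475.6 and 425.8 against 115.1 and 121.1 in MDA-MB-436. For both genes parental and Tax-R libraries did not overlap in either line. IFIT1 was at 355.7 and 305.4 against 79.8 and 90.1 in SUM159PT (-1.95 ± 0.11, adjusted p = 9.25e-07), and at 247.2 and 234.1 against 114.1 and 117.0 in MDA-MB-436 (-1.05 ± 0.09, adjusted p = 1.47e-06). IFIT3 was at 642.4 and 554.9 against 334.5 and 336.6 in SUM159PT (-0.83 ± 0.07, adjusted p = 1.44e-05), and at 484.1 and 502.9 against 344.3 and 311.9 in MDA-MB-436 (-0.59 ± 0.06, adjusted p = 1.07e-05). IFIT5 did not follow them: it was higher in MDA-MB-436 Tax-R cells, at 739.7 and 722.3 against 587.3 and 611.8 (0.29 ± 0.04, adjusted p = 0.000235), and did not pass in SUM159PT (0.08 ± 0.04, adjusted p = 0.18).

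Among the synthetases OAS1 was at 90.3 and 71.3 in MDA-MB-436 parental and at 35.03 and 38.99 in Tax-R libraries (-1.10 ± 0.17, adjusted p = 0.000253). In SUM159PT it had 49 reads in parental and 3 in Tax-R libraries, a ratio of 17.3 with a 95% counting interval of 5.59 to 86.9 (limma adjusted p = 5.18e-05). OAS2 was at 156.0 and 160.9 against 92.1 and 110.8 in MDA-MB-436 (-0.64 ± 0.11, adjusted p = 0.000577), and at 121.0 and 102.9 against 40.9 and 32.7 in SUM159PT (-1.58 ± 0.18, adjusted p = 8.07e-05). Parental and Tax-R libraries did not overlap for either gene. OAS3 changed least of the synthetases, at 1177.0 and 1160.1 against 881.7 and 960.4 in SUM159PT (-0.34 ± 0.05, adjusted p = 0.000348), and at 1551.2 and 1469.3 against 1386.2 and 1397.4 in MDA-MB-436 (-0.12 ± 0.04, adjusted p = 0.0231, but 0.116 with the 2 Tax-R libraries counted as 1 and 0.0898 without the first parental library, 0.131 without the first Tax-R library and 0.097 without the second). The summed leukocyte markers moved with the resistant label, from 2100.2 to 2203.5 in MDA-MB-436 parental to 297.2 to 426.8 in Tax-R cells. In SUM159PT the sum went from 570.2 to 598.5 down to 31.7 to 43. PTPRC made up most of it (-2.76 ± 0.14 and -6.49 ± 0.21), CD3E had 3 reads in MDA-MB-436 parental libraries and 0 in the others. Epithelial markers were lower too, at 2819.5 to 2866.3 against 1950.7 to 2066.4 in MDA-MB-436 and 2943.3 to 2983.2 against 1991.4 to 2036.6 in SUM159PT. Mesenchymal markers were higher, at 8624.7 to 8848.4 against 9385.3 to 9744.9 in MDA-MB-436 and 10477.3 to 10601.3 against 10875.9 to 11121.4 in SUM159PT. Single genes went against their list: EPCAM rose in MDA-MB-436 (0.84 ± 0.27) and CSF1R in SUM159PT (1.51 ± 0.36). The part of these markers in the result was not tested.

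**Figure D4:**
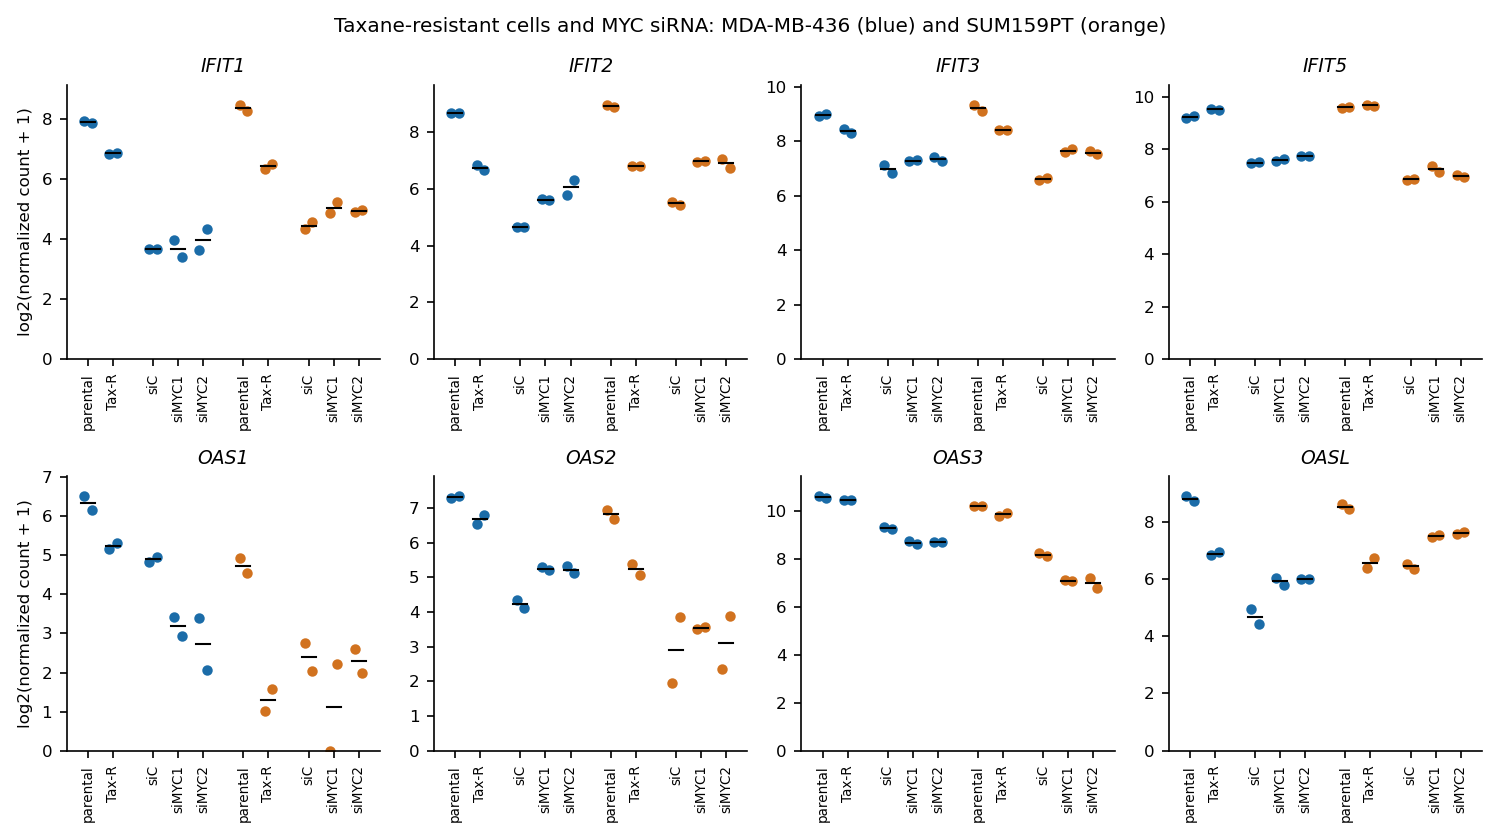
Each point is 1 library, as log2(normalized count + 1), with the group mean as a bar, in MDA-MB-436 (blue) and SUM159PT (orange); parental and Tax-R cells are in one table and siRNA groups in another, so the levels of these tables cannot be compared. IFIT2 and OASL are lower in Tax-R than in parental libraries and higher in libraries labelled siMYC than in siC libraries, whereas OAS3 is lower in both.

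In Tax-R cells of both lines, libraries labelled siMYC held more IFIT2, IFIT3 and OASL and less OAS3 than those with the control siRNA. The targeted gene was lower in SUM159PT, where MYC was at 2726.8 and 2663.4 with siC, 1538.1 and 1428.2 with siMYC1 and 1503.6 and 1426.5 with siMYC2 (-0.87 ± 0.04, adjusted p = 3.97e-23). In MDA-MB-436 it hardly differed, at 2058.0 and 2019.3 with siC and 1897.4 to 1930.1 in the 4 libraries labelled siMYC (-0.09 ± 0.03, adjusted p = 0.0144). In SUM159PT, 5 members were higher and 1 lower of 6 tested, against 69.5% of genes called (35% higher, 34.5% lower), with a median of 0.77 beside -0.01. In the MDA-MB-436 libraries labelled siMYC, 4 of 8 were higher and 2 lower, which is 6 of 8 against a background of 67.7% (34% higher, 33.7% lower), and the median was 0.26 beside -0.01.

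IFIT2 was at 46.2 and 42.4 with siC in SUM159PT, 124.3 and 127.5 with siMYC1 and 132.2 and 107.4 with siMYC2 (1.45 ± 0.14, adjusted p = 2.63e-13). In MDA-MB-436 it was at 24.5 and 24.3, 48.8 and 47.4, and 55.0 and 78.3 (1.17 ± 0.19, adjusted p = 2.69e-06). OASL was at 92.3 and 81.7 with siC and at 177.6 to 201.0 with either MYC siRNA in SUM159PT (1.11 ± 0.11, adjusted p = 4.86e-13), and at 29.8 and 20.4 against 54.1 to 65.4 in MDA-MB-436 (1.28 ± 0.18, adjusted p = 5.65e-07). No library labelled siMYC overlapped with siC for IFIT2 or OASL. IFIT3 was at 95.2 and 98.3 against 181.3 to 208.6 in SUM159PT (1.0 ± 0.10, adjusted p = 4.37e-12), and at 137.4 and 111.6 against 151.3 to 171.7 in MDA-MB-436 (0.35 ± 0.10, adjusted p = 0.00477, but 0.20 and 0.181 without the second siC library). IFIT1 passed in SUM159PT alone, at 19.2 and 22.8 against 28.2 to 36.4 (0.54 ± 0.23, adjusted p = 0.0378, but 0.218 in DESeq2, 0.113 for siMYC2 alone, and 0.203, 0.122 and 0.0722 without the first siC, the second siMYC1 or the second siMYC2 library); in MDA-MB-436 the groups overlapped (0.16 ± 0.33, adjusted p = 0.678). Whether the lines differ in IFIT1 was not tested. IFIT5 changed little, by 0.26 ± 0.11 (adjusted p = 0.037) in SUM159PT and 0.17 ± 0.08 (adjusted p = 0.0758, but 0.0321 for siMYC2 alone) in MDA-MB-436, and the call in SUM159PT is lost under 8 alternatives.

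The 2-5A synthetases were not of one direction in MDA-MB-436. OAS3 was at 299.0 and 277.3 with siC in SUM159PT, 136.9 and 133.0 with siMYC1 and 147.6 and 109.4 with siMYC2 (-1.13 ± 0.10, adjusted p = 1.87e-13). In MDA-MB-436 it was at 635.9 and 598.0, 422.8 and 391.0, and 412.5 and 408.4 (-0.59 ± 0.06, adjusted p = 6.06e-10). In both lines the libraries labelled siMYC were below both siC libraries. In MDA-MB-436, OAS1 was lower, at 27.7 and 30.1 against 9.8, 6.6, 9.5 and 3.2 (-1.95 ± 0.37, adjusted p = 4.22e-05), while OAS2 was higher, at 19.2 and 16.5 against 38.1, 36.1, 38.9 and 33.9 (1.0 ± 0.22, adjusted p = 0.000169). In SUM159PT both were under the filter, with OAS1 at 5.8 or less and OAS2 at 2.9 to 13.8 in all 6 libraries. TMEM173 was higher in the libraries labelled siMYC of both lines, by 2.0 ± 0.21 in MDA-MB-436 and 0.92 ± 0.10 in SUM159PT. Leukocyte markers summed to 61.5 to 71.4 with siC and 28.7 to 39.7 with siMYC in SUM159PT, and to 30.1 to 38.3 and 18 to 27.3 in MDA-MB-436, mostly CSF1R, with CD3E at 0 reads. Mesenchymal markers were higher in libraries labelled siMYC, at 28266.7 to 28336.4 with siC and 43988.1 to 45050.8 in SUM159PT, and at 22969.5 to 23407.8 and 31269.6 to 33189.0 in MDA-MB-436. Epithelial markers were higher too, at 4573.5 to 4583.5 and 5697.8 to 5978.5 in SUM159PT, and at 3971.6 to 3995.7 and 4740.9 to 4876.5 in MDA-MB-436, and the part of these lists was not tested.

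In 4T1, the libraries labelled siMYC had more Ifit1, Oas1a, Oasl1 and Oasl2, while Ifit2 and Oas3 did not pass. Myc was not called (2390 to 2594.7 with siC, 2220.3 to 2407.1 with siMYC, -0.09 ± 0.04, adjusted p = 0.0683). Of 8 members 4 were higher and 0 lower, close to the 46.2% of genes called (24.7% higher, 21.5% lower), and the median was 0.46 beside 0.00. Ifit1 was at 76.3, 52.5 and 62.0 with siC, at 165.3, 144.1 and 136.4 with siMYC1 and at 131.8, 110.9 and 130.4 with siMYC2 (1.10 ± 0.12, adjusted p = 2.16e-08). Oasl2 was at 483.9, 432.9 and 609.5, then 962.5, 900.3 and 828.6, then 894.0, 849.7 and 837.5 (0.80 ± 0.07, adjusted p = 1.03e-09). In both genes every library labelled siMYC was above every siC library. Oas1a was at 72.3 to 103.3 with siC and 116.6 to 159.2 with siMYC (0.75 ± 0.11, adjusted p = 6.34e-06), and Oasl1 at 306.4 to 377.1 against 452.6 to 526.3 (0.48 ± 0.07, adjusted p = 1.55e-06). The groups overlapped for the other 4: Ifit2 (0.06 ± 0.06), Ifit3 (0.45 ± 0.19, adjusted p = 0.0548), Oas2 (0.30 ± 0.18) and Oas3 (-0.13 ± 0.07). Single libraries or the scaling decided some of these: Ifit3 passed with quantile normalization (0.49, adjusted p = 0.035) and without the first siC library (0.62, 0.0213) or the first siMYC2 library (0.49, 0.0495). Oas2 passed without the third siC library (0.52, adjusted p = 0.0355) and Oas3 without the second (-0.22, 0.0175). Ifit3b rose by 0.90 ± 0.23 and Oas1g by 0.59 ± 0.14, copies that may share reads with Ifit3 and Oas1a. Oas1b, also such a copy of Oas1a, was not called (0.11 ± 0.10, limma adjusted p = 0.377). Summed mesenchymal markers were 18245.3 to 18766.0 with siC and 36629.0 to 40938.3 with siMYC. Epithelial markers were higher too, at 17670.2 to 18884.6 and 22304.3 to 23655.7, while leukocyte markers were at 201.1 to 204.5 and 198.2 to 250.7. The part of these lists was not tested. Between siMYC2 and siMYC1, limma and edgeR called 0 members in MDA-MB-436, SUM159PT or 4T1, against 0.195%, 0.0% and 0.0% of genes by limma. At an unadjusted p below 0.05, limma had 1 member in MDA-MB-436 and 0 in the others, and edgeR 1 in each human line and 0 in 4T1.

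Compared per length, as RPKM computed from the recovered reads and GENCODE v29 exon lengths, IFIT3 was the most abundant member in mock cells of both lines. In MDA-MB-436 mock cells IFIT3 was at 39 ± 0.536 (SD, n = 2) and OASL at 36.8 ± 1.41, followed by OAS3 at 13.5 ± 0.60 and IFIT2 at 12.1 ± 0.293. IFIT1 at 7.84 ± 0.0766 and IFIT5 at 7.51 ± 0.722 did not differ beyond their spread, and OAS2 (4.81 ± 0.26) and OAS1 (1.42 ± 0.00143) were lowest. In SUM159PT mock cells the order was IFIT3 at 12.6 ± 0.161, IFIT5 at 9.44 ± 0.704, OAS3 at 7.17 ± 0.771 and OASL at 5.73 ± 0.905, the last 2 within their spread. IFIT2 (3.37 ± 0.207), IFIT1 (2.02 ± 0.514), OAS2 (0.198 ± 0.00226) and OAS1 (0.014 ± 0.0199) followed. OASL thus ranked number 2 in mock cells of MDA-MB-436 and number 4 in those of SUM159PT on this scale. The parental libraries set against Tax-R cells had another order. In MDA-MB-436 it was IFIT3 (16.6 ± 0.455), OAS3 (16.3 ± 0.6), IFIT5 (13.3 ± 0.405) and OASL (11.4 ± 0.885), with IFIT3 and OAS3 within their spread. In SUM159PT it was IFIT3 (20.6 ± 2.2), IFIT5 (17.6 ± 0.159), OAS3 (12.8 ± 0.171), IFIT2 (10.9 ± 0.379) and OASL (9.61 ± 0.925), the last 2 within their spread.

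Over the 40 human libraries, with each gene centred on the mean of its table, OASL varied most among the 6 members above the filter in every table (SD of 2.10 on the log2 scale), then IFIT2 (1.61), IFIT1 (1.40) and IFIT3 (1.04). OAS3 (0.30) and IFIT5 (0.14) varied least. The Pearson correlation of each with the average of the other 5 was 0.96 for IFIT1, 0.98 for IFIT2, IFIT3 and OASL, 0.11 for OAS3 and -0.27 for IFIT5. IFIT5 and OAS3 correlated at -0.50 with each other. Of 12376 genes, those most like the average of the 6 were DDX58 (0.934), the RNA sensor RIG-I, and ISG15 (0.927), a ubiquitin-like modifier. IFI44 (0.88), ARFGEF3 (0.876), DDX60 (0.872), ISG20 (0.87), AKR1B1 (0.842), PRSS23 (0.839), TMEM173 (0.836) and LGMN (0.834) followed. These libraries share tables and treatments, so the correlations are descriptions.

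The partners of the family in RNA defence form a list of 6, among them ABCE1, which recycles ribosomes, the 2-5A phosphodiesterase PDE12 and the cap methyltransferases CMTR1, CMTR2 and RNMT. For this and the following lists, the share of all genes called in MDA-MB-436 and SUM159PT was 47.8% and 39.1% with the sgRNA and 21.1% and 26% with the ORF. It was 54.6% and 45.7% in Tax-R cells, 67.7% and 69.5% in libraries labelled siMYC, 46.2% in 4T1 and 67.8% in Py230. A list count near its share is no result about the list. With the STING sgRNA, 3 rose and 1 fell in MDA-MB-436 (median 0.18) and 2 rose and 2 fell in SUM159PT (0.08). With the STING ORF, 1 rose and 0 fell in each line (0.00 and 0.12). In libraries labelled siMYC 0 rose, and 3 fell in MDA-MB-436 (-0.23, with ABCE1 at -0.82 ± 0.04 and PDE12 at -0.81 ± 0.06) and 5 in SUM159PT (-0.51, with ABCE1 at -1.39 ± 0.06 and PDE12 at -1.28 ± 0.10). OAS3 fell beside them in both lines. Tax-R cells had 2 higher and 2 lower in MDA-MB-436 (-0.02) and 0 and 2 in SUM159PT (-0.10), 4T1 0 and 4 (-0.17) and Py230 2 and 3 (-0.08).

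RNA sensors and adaptors, of which 9 human genes were tested, included DDX58, which fell by 2.09 ± 0.12 with the STING sgRNA in MDA-MB-436 and by 0.59 ± 0.20 in SUM159PT, and rose with the STING ORF by 1.95 ± 0.16 and 1.01 ± 0.24. The list had 0 higher and 5 lower with the sgRNA in MDA-MB-436 (median -0.27) and 2 and 1 in SUM159PT (0.05). With the ORF it had 3 higher and 1 lower in MDA-MB-436 (0.16) and 2 and 1 in SUM159PT (0.14). Tax-R cells had 4 higher and 4 lower in MDA-MB-436 (0.02) and 1 and 4 in SUM159PT (-0.06), where DHX58, a relative of RIG-I, fell by 1.42 ± 0.10. In libraries labelled siMYC the counts were 2 and 2 in MDA-MB-436 (-0.02) and 3 and 5 in SUM159PT (-0.21), with MAVS, the adaptor of RIG-I, higher in both (0.73 ± 0.04 and 0.82 ± 0.04). In mouse 10 were tested, with 5 higher and 1 lower in 4T1 (0.14) and 1 higher and 8 lower in Py230 (-1.38).

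Of the interferon signalling genes (receptors, kinases, STATs, IRFs and inhibitors), 2 of 16 were higher and 7 lower with the sgRNA in MDA-MB-436 (median -0.15), and 6 and 3 of 17 in SUM159PT (0.07). With the ORF, 2 of 15 were higher and 0 lower in MDA-MB-436 (0.17), and 1 and 1 of 17 in SUM159PT (0.04). Of 16 in Tax-R cells, 2 were higher and 6 lower in each line (-0.08 in MDA-MB-436 and -0.09 in SUM159PT), near the 54.6% and 45.7% of all genes called. IRF7, which drives interferon genes, was at -1.52 ± 0.15 and -1.15 ± 0.22. In libraries labelled siMYC 10 of 16 were higher and 3 lower in MDA-MB-436 (0.36) and 9 and 4 of 17 in SUM159PT (0.25), where USP18, an inhibitor of the interferon receptor, fell by 1.31 ± 0.24. In 4T1, 10 of 17 were higher and 0 lower (0.26), and in Py230 3 and 10 of 17 (-0.36).

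Of the other interferon-stimulated genes, 1 of 37 was higher and 33 were lower in MDA-MB-436 with the sgRNA (median -0.63), among them HERC5, the ligase for ISG15 (-4.77 ± 0.30), and ISG15 (-3.69 ± 0.11). In SUM159PT 8 of 34 were higher and 10 lower (-0.06): HERC5 fell by 3.24 ± 0.43, while the antiviral TRIM22 rose by 1.93 ± 0.31. With the ORF 12 of 36 were higher and 5 lower in MDA-MB-436 (0.16), and 8 and 1 of 33 in SUM159PT (0.19). The Tax-R counts were 6 and 18 of 38 in MDA-MB-436 (-0.12) and 2 and 31 of 38 in SUM159PT (-0.41). In libraries labelled siMYC they were 19 and 8 of 36 in MDA-MB-436 (0.27) and 19 and 7 of 36 in SUM159PT (0.30). In 4T1, 26 of 33 were higher and 0 lower (0.45), and in Py230 0 of 34 were higher and 33 lower (-2.56), with Mx1 at -6.22 ± 0.09. This list was chosen with earlier results of these data known and is no independent evidence of a direction.

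Interferon genes themselves were hardly read in human cells, where none of 8 passed the filter in any table. IFNL1, a type III interferon, had 7 reads in MDA-MB-436 mock libraries and 0 with the sgRNA, at least 4.36-fold lower (0 counted as 3 reads over the group). In Py230, Ifnb1 had 85 reads with vehicle and 2 with doxycycline, a ratio of 43.4 with a 95% counting interval of 11.6 to 364, and Ifna4 had 62 and 0, at least 21.1-fold lower.

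Genes beside the IFIT locus, which lie next to the family in GRCh38.p14 but have other roles, did not share its direction in STING sgRNA cells, where 5 of 6 rose and 0 fell in MDA-MB-436 (median 0.41) and 1 and 0 in SUM159PT (0.07). With the ORF 3 of 6 and 4 of 6 rose and 0 fell (0.31 in MDA-MB-436, 0.35 in SUM159PT), against 9.2% and 13.2% of all genes called higher. This was the direction of the called members. In Tax-R cells 1 rose and 2 fell of 6 in MDA-MB-436 (-0.01), and 1 and 0 of 6 in SUM159PT. In libraries labelled siMYC 1 rose and 2 fell of 6 in MDA-MB-436 (-0.01), and 0 and 3 of 6 in SUM159PT (-0.37). Mouse counterparts had 0 higher and 3 lower of 5 in 4T1 (-0.21). In Py230 they had 1 and 3 of 5 (-1.04), against 32.8% of all genes called higher and 35.1% lower, and the death receptor Fas fell by 1.39. Neighbours of the OAS and OASL loci were mostly lower in libraries labelled siMYC, 6 of 7 in each line with 0 higher (-0.47 in MDA-MB-436, -0.37 in SUM159PT), against 33.7% and 34.5% of all genes called lower, DDX54 by 0.83 ± 0.05 and 0.98 on the log2 scale. The members at these loci differed in direction there: OAS3 was lower in both lines, but OASL was higher (1.28 ± 0.18 and 1.11 ± 0.11). In MDA-MB-436, OAS2 was higher (1.0 ± 0.22) and OAS1 lower (-1.95 ± 0.37). With the sgRNA 2 of 8 rose and 3 fell in MDA-MB-436 (0.05), and 1 and 2 of 8 in SUM159PT (-0.08). With the ORF 0 rose and 2 of 8 fell in MDA-MB-436 (-0.11), and 0 and 4 of 8 in SUM159PT (-0.19). In Tax-R cells 2 of 6 rose and 1 fell in MDA-MB-436 (0.08), and 5 and 1 of 7 in SUM159PT. In mouse, 2 rose and 2 fell of 6 in 4T1 (0.11), and 4 and 1 of 7 in Py230 (0.21).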

How the data were processed

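The deposited tables hold signal: per the file values, the authors scaled the read count of each gene by a factor of its library. StringTie, HISAT2, featureCounts and DESeq2 appear in the submitters' processing notes with no version; the authors' genome build is not stated in the sources read here. Total RNA was taken with the Maxwell RSC simplyRNA system, per the labels. Dividing by the value of 1 read gave whole numbers within 0.05 for 100% of values, and these recovered reads give the depth. Each table was tested on its own by limma-trend (limma 3.58.1, R 4.3.3), two-sided, on log2(value + 1), where a gene's table mean was 10 or more, with Benjamini-Hochberg adjustment over the table. A pair of perturbed groups was averaged against its control. Counting intervals and floors cover counting error only. Tried besides were a pseudocount of 4, no filter on low values, quantile normalization, a replicate block, edgeR 4.0.16 and DESeq2 1.42.0 on recovered reads, each reagent alone, each library left out, and Tax-R libraries of MDA-MB-436 counted as 1. All members are named in every comparison, and up to 3 called genes of a list with the largest change. A few genes of these lists are not reported here. Promoter windows are RefSeq's, and the GAAANGAAA motif was added after seeing them. Members and lists were chosen with earlier results of these data known.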

Additional observations from a re-analysis of the deposited data

Results flagged for a closer look

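OAS3 moved in opposite directions with the STING sgRNA in the human lines, by -0.70 in MDA-MB-436 and by 0.51 in SUM159PT, with every sgRNA library below both mock libraries in the first line and above both in the second. The difference between the lines was not tested, because their tables were normalized separately.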

How the results depend on the processing

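Of 61 called changes of single members, 55 kept their call and direction under every alternative run, and none turned. The 6 lost in at least 1 setting were OAS3 in MDA-MB-436 Tax-R cells, IFIT3 in MDA-MB-436 and IFIT1 and IFIT5 in SUM159PT in libraries labelled siMYC, IFIT5 in MDA-MB-436 with the sgRNA, and OAS2 in MDA-MB-436 with the STING ORF; the cause was not tested. Members called higher in SUM159PT with siMYC numbered 5, but 3 with no filter, with DESeq2 and for siMYC2 alone, and 3 to 4 when 1 library was left out. Members called lower in 4T1 numbered 0 to 1 when 1 library was left out (1, Oas3, without the second siC library), and members called higher in MDA-MB-436 with the sgRNA 0 to 1 (0 without the first mock library). Replicate numbers did not pair the samples (correlations of -0.09 to 0.11 between deviations of same-numbered libraries), and the replicate block changed 1 call, OAS3 in SUM159PT with the STING ORF (0.25, adjusted p = 0.00945).

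The counts of all genes called, which set the background shares, moved more. DESeq2 called 5913 genes against 10421 in MDA-MB-436 Tax-R cells, 4447 against 8386 in SUM159PT Tax-R cells, 4265 against 7316 and 3198 against 5927 with the sgRNA, and C1 alone 3487 in SUM159PT. With the STING ORF, 3134 genes in MDA-MB-436 became 328 with no filter, 1090 with DESeq2, 1707 without the first GFP library and 1247 without the second STING library. In SUM159PT 3875 became 884 with no filter, 1645 with DESeq2, and 1257 and 1489 without the first and second GFP library. Between the reagents edgeR called 122 against 30 genes for MDA-MB-436 siMYC and 238 against 122 for its sgRNA groups. With no filter, 56.7% of calls for the MDA-MB-436 ORF were higher, 13.1 points above the share with the filter, and the median of all genes in MDA-MB-436 Tax-R cells moved by -0.112. OAS1 and OAS2 in SUM159PT had few reads outside the Tax-R table, fell under the filter there and were not tested with it.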
